A study of Homo sapiens with 6 samples.

Results

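MDA-MB-231 is an established triple negative breast cancer cell line with mesenchymal features, and EC-70124 is an indolocarbazole multi-kinase inhibitor. Messenger RNA was profiled on Affymetrix Human Gene ST arrays, 1 per sample, in 3 control samples grown without the compound and in 3 samples given EC-70124 at 500 nM during 24 h, with no other difference between the groups given in the labels. The genes described here are 10 feedback and output genes of the RAS to ERK pathway: the Sprouty genes SPRY1, SPRY2 and SPRY4, the SPRED genes SPRED1 and SPRED2, the ETS factors ETV1, ETV4 and ETV5, PHLDA1 and the antisense RNA EPHA2-AS1. They were chosen by name, and 9 of the 10 had a probe set among the 18417 genes analysed. EPHA2-AS1 matched no probe set by symbol or gene identifier and was not analysed here.

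ERK, the last kinase of the RAF, MEK and ERK cascade, phosphorylates transcription factors and thereby raises the transcription of genes that restrain the same cascade. Sprouty proteins dampen signalling from growth factor receptors to RAS and RAF. SPRED proteins are related membrane proteins that bring the RAS GTPase activator neurofibromin to RAS. ETV1, ETV4 and ETV5 form the PEA3 subfamily of ETS transcription factors, which are made in response to ERK activity and are held down by the repressor CIC when ERK is inactive. PHLDA1 is a cytoplasmic protein with a pleckstrin homology-like domain that is also made in response to ERK.

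Start regions of these genes are shown because the genes are known as transcriptional targets of one cascade and did not all move together in these arrays. RefSeq sequences (build GRCh38.p14) from 250 bases before to 50 bases after an annotated start were held for 8 of the 10 genes, in 17 windows, since some genes have several starts. Capitals mark matches on either strand to CCGGAA, a core bound by ETS factors, to TGAATGGA, a form of the CIC octamer, or to TGACTCA, the AP-1 site. The 4 windows are those of SPRY4 (chr5:142324198-142324497, minus strand), which fell most, of SPRY2 (chr13:80341077-80341376, minus strand) and ETV1 (chr7:13991376-13991675, minus strand), which also fell, and of PHLDA1 (chr12:76031727-76032026, minus strand), which did not pass the test.
SPRY4: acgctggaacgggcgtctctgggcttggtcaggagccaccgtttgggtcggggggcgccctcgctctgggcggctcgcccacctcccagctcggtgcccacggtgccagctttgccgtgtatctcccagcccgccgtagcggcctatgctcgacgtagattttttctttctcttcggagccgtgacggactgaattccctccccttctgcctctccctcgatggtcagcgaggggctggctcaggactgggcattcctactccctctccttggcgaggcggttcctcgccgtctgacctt
SPRY2: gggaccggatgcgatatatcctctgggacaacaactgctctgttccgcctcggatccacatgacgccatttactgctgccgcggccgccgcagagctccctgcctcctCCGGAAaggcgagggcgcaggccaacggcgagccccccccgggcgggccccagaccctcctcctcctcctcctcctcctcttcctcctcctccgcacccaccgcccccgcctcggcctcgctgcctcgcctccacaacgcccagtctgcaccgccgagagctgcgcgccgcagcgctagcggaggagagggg
ETV1: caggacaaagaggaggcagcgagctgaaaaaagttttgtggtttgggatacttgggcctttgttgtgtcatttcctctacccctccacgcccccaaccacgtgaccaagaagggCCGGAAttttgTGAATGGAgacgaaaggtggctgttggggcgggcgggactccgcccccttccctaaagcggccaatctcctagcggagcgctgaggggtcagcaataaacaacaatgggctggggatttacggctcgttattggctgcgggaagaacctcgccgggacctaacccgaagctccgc
PHLDA1: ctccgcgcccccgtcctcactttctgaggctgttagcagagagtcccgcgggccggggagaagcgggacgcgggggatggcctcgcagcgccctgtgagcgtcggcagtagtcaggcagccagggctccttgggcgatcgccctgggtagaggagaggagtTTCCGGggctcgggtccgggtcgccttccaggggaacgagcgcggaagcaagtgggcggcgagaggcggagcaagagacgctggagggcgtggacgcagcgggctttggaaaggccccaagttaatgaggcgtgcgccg

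The ETS letters were present in 6 of the 17 windows, in 4 genes (SPRY1, SPRY2, ETV1 and PHLDA1), and in 17.2% of all 35116 start windows of the reference. Overlapping windows of ETV1 hold the same match more than once. SPRY2 has 3 windows and ETV1 has 6, with 1 of each printed. The printed SPRY2 window is its only one with a match. The printed ETV1 window is its only one with the CIC octamer. CIC octamers were searched as TGAATGAA and TGAATGGA. The second was found in 1 window, that of ETV1 printed above, and in 1.03% of all windows, and the first was found in none of the 17 windows and in 1.65% of all windows. TGACTCA was found in 2 windows, in SPRED2 and EPHA2-AS1, and in 4.95% of all windows. The cyclic AMP response element, TGACGTCA, was in none of the 17 and in 1.85% of all windows. SPRY4, the gene with the largest fall, held none of these letters in its window. Of the other called genes with windows, SPRY1, SPRY2 and ETV1 held the ETS letters. Among genes not called, PHLDA1 held them and SPRED1 and SPRED2 did not. No window was held for ETV4 and ETV5. A match is a description of the letters and was not tested as a binding site.

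Each value below is the authors' intensity of a probe set on a linear scale, normalized across arrays, and a log2 fold change is EC-70124 minus control with its standard error (SE) from limma, a linear model that shares its estimate of spread across all genes. Adjusted p-values were computed over all 18417 genes, and a gene was called where the adjusted p was under 0.05. Levels of different probe sets were not compared with each other. In extracts of whole cultures, fewer cells with a transcript and less transcript per cell cannot be told apart. Control and treated samples were called independent in the study's methods. EC-70124 replicate 3 stood somewhat apart: over all genes its log2 values had an SD of 0.19 around the mean of the other EC-70124 arrays, against 0.11 to 0.15 for each of the other 5 arrays around its own group. The array was the lowest of the treated arrays in 8 of the 9 measured genes and in 42.1% of all genes, so values without it are given where they differ. Of 8 markers of the cell line, VIM, an intermediate filament of mesenchymal cells, was listed at 13827 ± 148 (SD, n = 3) in control arrays, CD44 at 10098 ± 125 (SD, n = 3), the estrogen receptor gene ESR1 at 225 ± 6.90 (SD, n = 3) and the progesterone receptor gene PGR at 166 ± 13.0 (SD, n = 3). Without a background measure these levels do not say whether a transcript was present. Of the same 8 markers, the epithelial keratin gene KRT18 rose (0.77 on the log2 scale, limma adjusted p = 3.8e-05), the adhesion receptor gene CD44 fell (-0.29, limma adjusted p = 0.0049), and the E-cadherin gene CDH1 rose (0.19, limma adjusted p = 0.049) with a call that was lost in 4 of the 6 fits that leave out 1 array. The other 5 of the 8 did not pass, among them VIM (-0.07), ESR1 (-0.12) and PGR (-0.07). The share called was 37.5%, near the 34.5% of all genes. Of 9 leukocyte and endothelial markers, CD68, a lysosomal protein that tumour cells also make, was the one called (11.1%, against 34.5% of all genes). It fell by 0.33 on the log2 scale, and its call was lost without control replicate 2 or 3 (limma adjusted p = 0.0669 and 0.0533). The part of these changes in the results below was not tested.

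Of the 9 measured genes, 5 were called by limma (34.5% of all genes were). The 5 calls were falls in the EC-70124 samples, where 14.8% of all genes tested fell and 19.7% rose (rises were 57.2% of the calls, and 46.9% after quantile normalization). The 5 were SPRY4, ETV4, ETV1, SPRY1 and SPRY2. SPRED1, SPRED2, ETV5 and PHLDA1 did not pass. The median log2 fold change over the 9 genes was -0.36, and over all genes -0.0045. All 3 treated arrays lay below all 3 control arrays in 6 of the 9 genes, against 22.0% of all genes, and above them in 1 gene, against 25.6%. With EC-70124 replicate 3 left out, 6 genes fell and 1 rose, and over all genes 37.1% were called (16.0% fell and 21.1% rose).

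**Figure D1:**
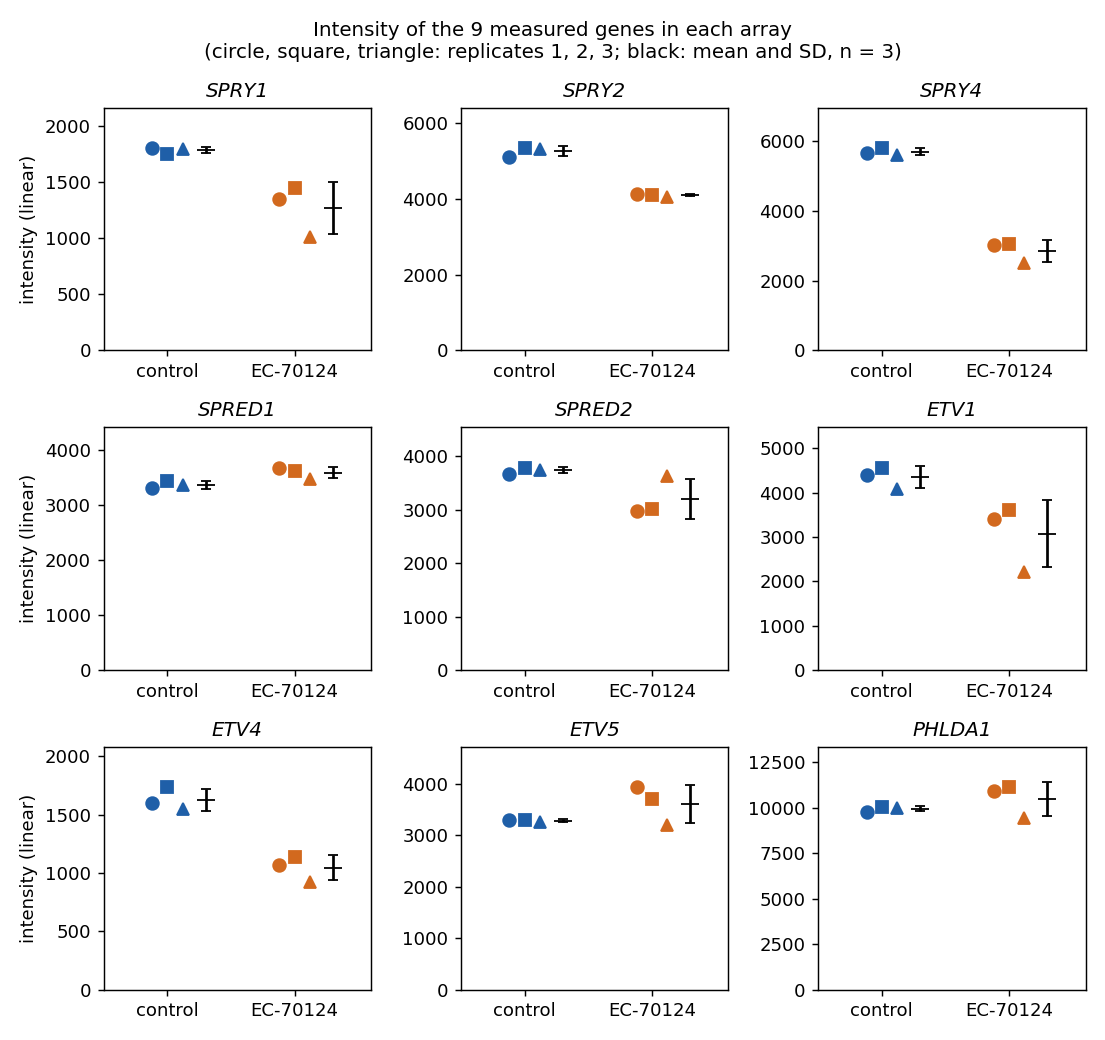
Intensity (linear scale, y axis starting at 0) of the 9 measured genes in each control (blue) and EC-70124 (orange) array. Circle, square and triangle are replicates 1, 2 and 3, and the black mark is the mean with its SD (n = 3). SPRY4 went from 5691 to 2849, and the triangle of EC-70124 replicate 3 lies below the other treated arrays in each panel but that of SPRED2.

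SPRY1, SPRY2 and SPRY4 all fell. SPRY4, an inhibitor of receptor to RAS signalling, had intensities of 5662, 5802 and 5610 in the control arrays and of 3019, 3037 and 2493 in the EC-70124 arrays. The groups lay far apart, with treated replicate 3 lowest. Its level fell to 49.9% of control, at log2 fold change -1.004 (SE 0.08, limma adjusted p = 6.0e-05), and only 125 of the 18417 genes had a lower log2 fold change. SPRY4 was called in each of the 15 alternative settings run.

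SPRY2, which binds the adaptor GRB2 and the ubiquitin ligase CBL, had intensities of 5105, 5346 and 5333 in control arrays and of 4120, 4105 and 4063 in treated arrays. The treated arrays were nearly equal and all lay below the controls. The log2 fold change was -0.36 (SE 0.05, limma adjusted p = 0.00093), a fall to 77.9% of control. SPRY1, a relative with the same cysteine-rich domain, had intensities of 1801, 1751 and 1795 in control arrays and of 1350, 1446 and 1010 in treated arrays. Control arrays were tight and treated replicate 3 was well below the other treated arrays. Its log2 fold change was -0.51 (SE 0.12, limma adjusted p = 0.0131), and -0.35 without EC-70124 replicate 3 (limma adjusted p = 0.0026).

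The log2 fold change of SPRY4 was lower by 0.64 than that of SPRY2 and lower by 0.50 than that of SPRY1. The within-array difference between SPRY4 and each relative did not overlap between control and treated arrays (exact permutation test, two-sided, p = 0.1 for both, the smallest p that 3 against 3 samples allow, so that no such difference can pass 0.05). In all, 8 such differences between genes were computed, and after Benjamini-Hochberg adjustment over the 8 no exact p was below 0.133. SPRY1 and SPRY2 differed by 0.15 in log2 fold change, and their within-array differences overlapped between the groups (exact permutation test, two-sided, p = 0.5). Those differences had an SD of 0.05 in control arrays and of 0.27 in treated arrays. SPRY3, the remaining family member, was at 194 ± 32.6 (SD, n = 3) in control arrays and 217 ± 16.8 (SD, n = 3) in treated arrays and did not pass.

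Neither SPRED gene passed the test. SPRED2 had intensities of 3667, 3782 and 3745 in control arrays and of 2968, 3004 and 3628 in treated arrays. All treated arrays lay below the controls, but replicate 3 lay close to them and replicates 1 and 2 further down. The log2 fold change was -0.23 (SE 0.08, limma adjusted p = 0.0686). Without EC-70124 replicate 3 it was -0.32 and passed (limma adjusted p = 0.0023), and it also passed in 4 of the other settings.

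SPRED1, whose loss of function causes Legius syndrome, had intensities of 3311, 3449 and 3367 in control arrays and of 3687, 3624 and 3479 in treated arrays. The treated arrays were all slightly higher than the controls. Its log2 fold change was 0.09 (95% interval -0.03 to 0.21, limma adjusted p = 0.241), so that a fall of the size seen for SPRY2 lies outside the interval. Within arrays the difference between SPRED2 and SPRED1 did not overlap between the groups (-0.32 in log2 fold change, exact permutation test, two-sided, p = 0.1). SPRED3 was at 907 ± 120 (SD, n = 3) in control arrays and 840.3 ± 21.3 (SD, n = 3) in treated arrays and did not pass. NF1, which encodes the neurofibromin that SPRED proteins recruit, rose from 1304 ± 78.8 (SD, n = 3) to 2640 ± 106 (SD, n = 3), at log2 fold change 1.02 (SE 0.07, limma adjusted p = 1.9e-05).

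**Figure D2:**
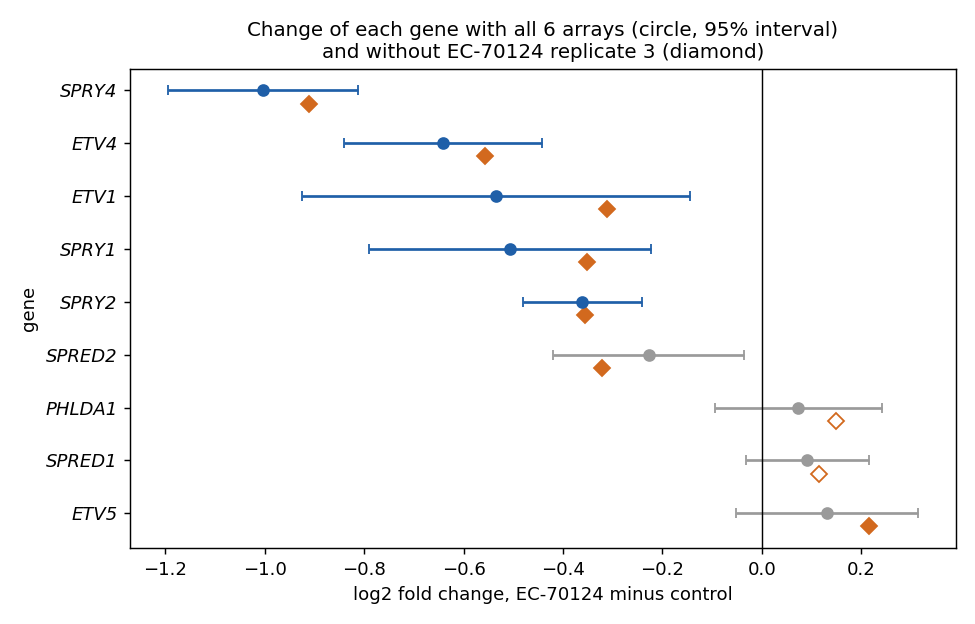
Log2 fold change (EC-70124 minus control, x axis) of each measured gene (y axis). Circles are the values from all 6 arrays with their 95% intervals, blue for called genes, gray for the rest, and diamonds are the values without EC-70124 replicate 3, filled for called genes. Without that array SPRED2 (-0.32) and ETV5 (0.21) passed, and ETV1 moved from -0.53 to -0.31.

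Of the PEA3 factors, ETV4 and ETV1 fell and ETV5 did not pass. ETV4, the PEA3 factor first described in mammary tumours, had intensities of 1595, 1734 and 1549 in control arrays and of 1071, 1137 and 926 in treated arrays. The groups were well separated. ETV4 fell to 64.1% of control, at log2 fold change -0.64 (SE 0.09, limma adjusted p = 0.00069), and was called in each of the 15 alternative settings run.

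ETV1 had intensities of 4408, 4565 and 4093 in control arrays and of 3402, 3610 and 2206 in treated arrays. Treated replicate 3 was far below the other treated arrays, and all treated arrays lay below the controls. The log2 fold change was -0.53 (SE 0.17, limma adjusted p = 0.0408). The call was lost when control replicate 1, 2 or 3 was left out (limma adjusted p = 0.106, 0.117 and 0.0714). Without EC-70124 replicate 3 the log2 fold change was smaller, -0.31, with a smaller standard error of 0.07, and passed (limma adjusted p = 0.0098).

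ETV5 had intensities of 3308, 3308 and 3258 in control arrays and of 3938, 3705 and 3206 in treated arrays. Treated replicates 1 and 2 were above the controls and replicate 3 was below them, so the groups overlapped. Its log2 fold change was 0.13 (95% interval -0.05 to 0.31, limma adjusted p = 0.258). Without EC-70124 replicate 3 it was 0.21 and passed as a rise (limma adjusted p = 0.0177). The log2 fold change of ETV4 was lower than that of ETV5 by 0.77, and that of ETV1 by 0.67, with no overlap of the within-array differences between the groups (exact permutation test, two-sided, p = 0.1 for both). ETV4 and ETV1 differed by 0.11, and their within-array differences overlapped between the groups (exact permutation test, two-sided, p = 0.4). Those differences had an SD of 0.04 in control arrays and of 0.24 in treated arrays.

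PHLDA1 had intensities of 9790, 10049 and 10004 in control arrays and of 10930 (replicate 1), 11124 and 9433 in treated arrays. Treated replicate 3 was below the controls and the other treated arrays were above them. The log2 fold change was 0.07 (95% interval -0.09 to 0.24, limma adjusted p = 0.498), and 0.15 without EC-70124 replicate 3 (limma adjusted p = 0.0525). Its relatives PHLDA2 and PHLDA3 did not pass either. EPHA2, the ephrin receptor gene next to EPHA2-AS1 and itself an ERK output gene, had intensities of 5310, 5540 and 5681 in control arrays and of 4274, 4218 and 4396 in treated arrays. The groups did not overlap, and EPHA2 fell by 0.36 on the log2 scale (SE 0.05, limma adjusted p = 0.0013). Of its ephrin A ligands, EFNA3, EFNA4 and EFNA5 fell too, with log2 fold changes of -0.34, -0.38 and -0.58, and EFNA1 and EFNA2 did not pass. Without EC-70124 replicate 3, EFNA1 passed as a rise (0.33, limma adjusted p = 0.0165).

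A transcript score of MAPK activity used in tumours comprises 10 genes, of which PHLDA1, SPRY2, SPRY4, ETV4 and ETV5 are described above and CCND1, DUSP4, DUSP6, EPHA2 and EPHA4 are the others. Of the 10, 5 fell (50%, against 14.8% of all genes) and none rose. The falls of SPRY2, SPRY4 and ETV4 are already counted above. Of the other 5 genes, 2 fell, DUSP4 and EPHA2. DUSP4, a nuclear phosphatase of ERK, went from 3415 ± 23.0 (SD, n = 3) to 1455 ± 90.7 (SD, n = 3), at log2 fold change -1.23 (SE 0.06, limma adjusted p = 7.5e-06). DUSP6, the cytoplasmic phosphatase of ERK, missed the threshold at -0.23 (limma adjusted p = 0.0523), and CCND1 (-0.08) and EPHA4 (0.15) did not pass either. DUSP6 passed without EC-70124 replicate 2 (-0.29, limma adjusted p = 0.0344). It also passed with cyclic loess, without the 30% dimmest genes, with an offset of 50 and with trend and robust settings (lowest limma adjusted p = 0.0169). Without EC-70124 replicate 3, DUSP6 and CCND1 were both at -0.15, and EPHA4 turned to -0.0053.

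Of 16 other ERK output genes measured, which include the remaining 5 genes of the score, 8 fell (50%, against 14.8% of all genes) and 1 rose. The falls were led by DUSP4, PLAUR, the urokinase receptor (log2 fold change -1.15), DUSP5, another nuclear ERK phosphatase (-1.05), and FOSL1, an AP-1 subunit (-0.75). DUSP5 was at -0.90 without EC-70124 replicate 3, and it was not called in every alternative setting. With an unequal-variance t statistic 6 of the 16 genes were called, where over all genes 1962 rose and 1280 fell. With single arrays left out 8 or 9 of the 16 were called. The study picked DUSP4, DUSP5 and PLAUR from these arrays, and their falls are therefore no independent evidence. The remaining genes were measured on the same arrays, so their changes are not independent of these falls either. EGR1, an immediate early transcription factor of the ERK and ELK1 axis, was the one that rose, from 5173 ± 499 (SD, n = 3) to 13281 ± 99.3 (SD, n = 3), at log2 fold change 1.36 (SE 0.08, limma adjusted p = 1.0e-05). EGR1 thus moved against DUSP4, SPRY4 and FOSL1 in the same arrays.

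**Figure D3:**
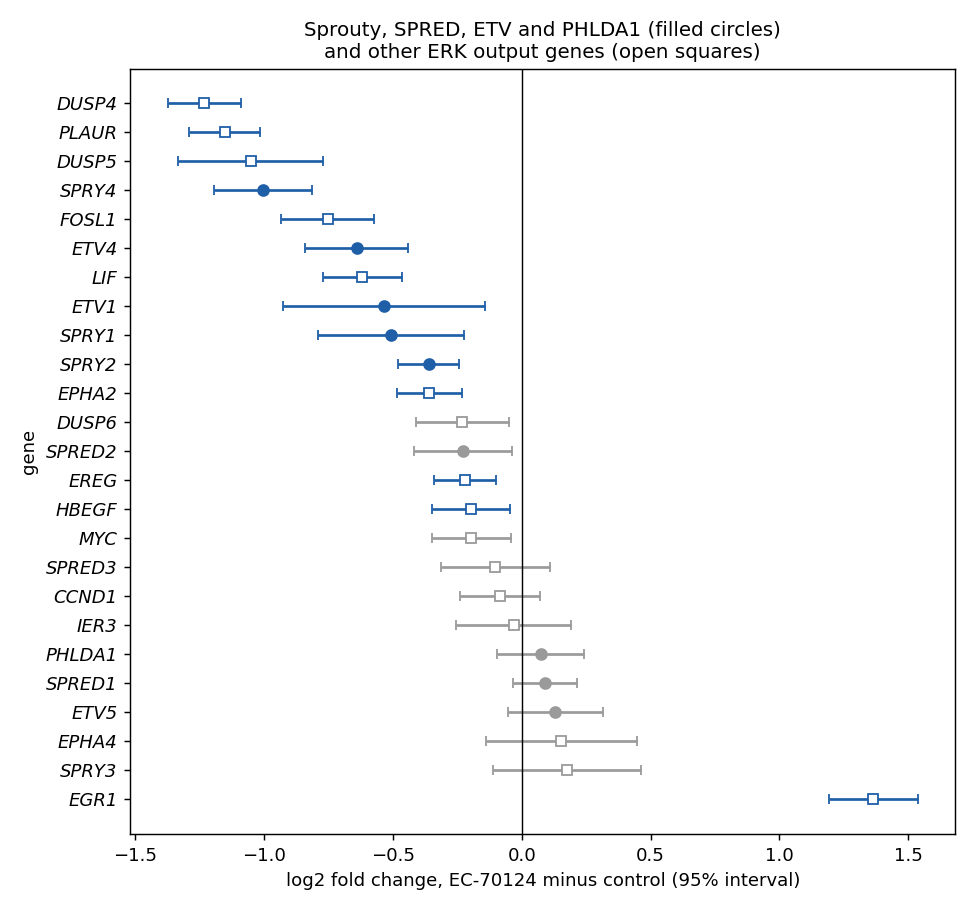
Log2 fold change (EC-70124 minus control, x axis) with 95% intervals from limma for the 9 measured genes (filled circles) and 16 other ERK output genes (open squares), ordered by value, with called genes in blue. Values run from -1.23 for DUSP4 to 1.36 for EGR1, with SPRY4 (-1.004) among the 4 lowest and ETV5, SPRED1 and PHLDA1 to the right of 0.

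Of 18 measured genes of the cascade itself, from adaptors to ERK and its RSK kinases, 4 fell and 2 rose, so that 33.3% were called, near the 34.5% of all genes. The exchange factor gene SOS1 (log2 fold change -0.40), the MEK gene MAP2K1 (-0.31) and the RSK gene RPS6KA2 (-0.63) fell, whereas the scaffold genes SHOC2 (0.49) and LAMTOR3 (0.32) rose. MAPK3, which encodes ERK1, did not pass (-0.25, limma adjusted p = 0.0869). It was at -0.14 without EC-70124 replicate 3 and passed without replicate 2 (-0.34, limma adjusted p = 0.0289). Of 21 receptors and ligands, 8 fell and 2 rose (47.6% called, against 34.5% of all genes). EGFR was at -0.39, FGFR4 at -0.36, FGFR1 at -0.35 and ERBB3 at -0.28. ERBB3 lost its call without control replicate 1 or 2 (limma adjusted p = 0.0752 and 0.0745). The ligand gene FGF1 rose with a log2 fold change of 1.15 and treated intensities of 692, 709 and 1449, the highest in replicate 3. Without that array FGF1 was at 0.81.

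Of 13 RAS GTPase activators and binding partners of Sprouty and SPRED proteins, 4 rose and 6 fell (76.9% called, against 34.5% of all genes). Besides NF1, the ubiquitin ligase gene SIAH1 rose (0.56), and the ligase gene CBLB (-0.46) and the activator genes RASA3 (-0.41) and RASA2 (-0.30) fell. Treated replicate 3 was the lowest for CBLB, which was at -0.28 without it (limma adjusted p = 0.0134) and lost its call without control replicate 1, 2 or 3 (limma adjusted p = 0.0763, 0.112 and 0.071). RASA2 lost its call without control replicate 1 or 2 (limma adjusted p = 0.0558 and 0.0542), and was at -0.22 without EC-70124 replicate 3. Of 11 genes of the CIC repressor and of ETV protein turnover, 3 rose (27.3%, against 19.7% of all genes) and 2 fell (18.2%, against 14.8%). The coactivator genes CREBBP (0.65) and EP300 (0.44) rose, as did DET1, part of a ubiquitin ligase for ETV proteins (0.83, and 0.41 as the median over its probe sets). ATXN1, a partner of CIC (-0.40), and the deubiquitinase gene USP9X (-0.30) fell, with ATXN1 at -0.30 without EC-70124 replicate 3. CIC itself did not pass (-0.17, limma adjusted p = 0.103). It passed without control replicate 3 (-0.23, limma adjusted p = 0.0393) and in another setting, where its limma adjusted p was lowest at 0.0165.

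Of 24 other ETS factors, 7 rose and 2 fell, so that 37.5% were called, near the 34.5% of all genes. ELF1 (0.52), GABPA (0.48), ETS2 (0.44), ETS1 (0.41) and EHF (0.39) rose, and the median log2 fold change of the list was 0.05. EHF lost its call in 4 of the 6 fits that leave out 1 array. Of 10 known target genes of PEA3 factors, 3 fell and 3 rose (60% called, against 34.5% of all genes). The matrix protease genes MMP14 (-1.24, also selected by the study on these samples) and MMP1 (-0.68) and the urokinase gene PLAU (-0.71) fell, whereas MMP3 (0.66), the cyclooxygenase gene PTGS2 (0.56) and the adhesion gene ICAM1 (0.39) rose. ICAM1 lost its call in 5 of those 6 fits, all but the one without EC-70124 replicate 3.

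**Figure D4:**
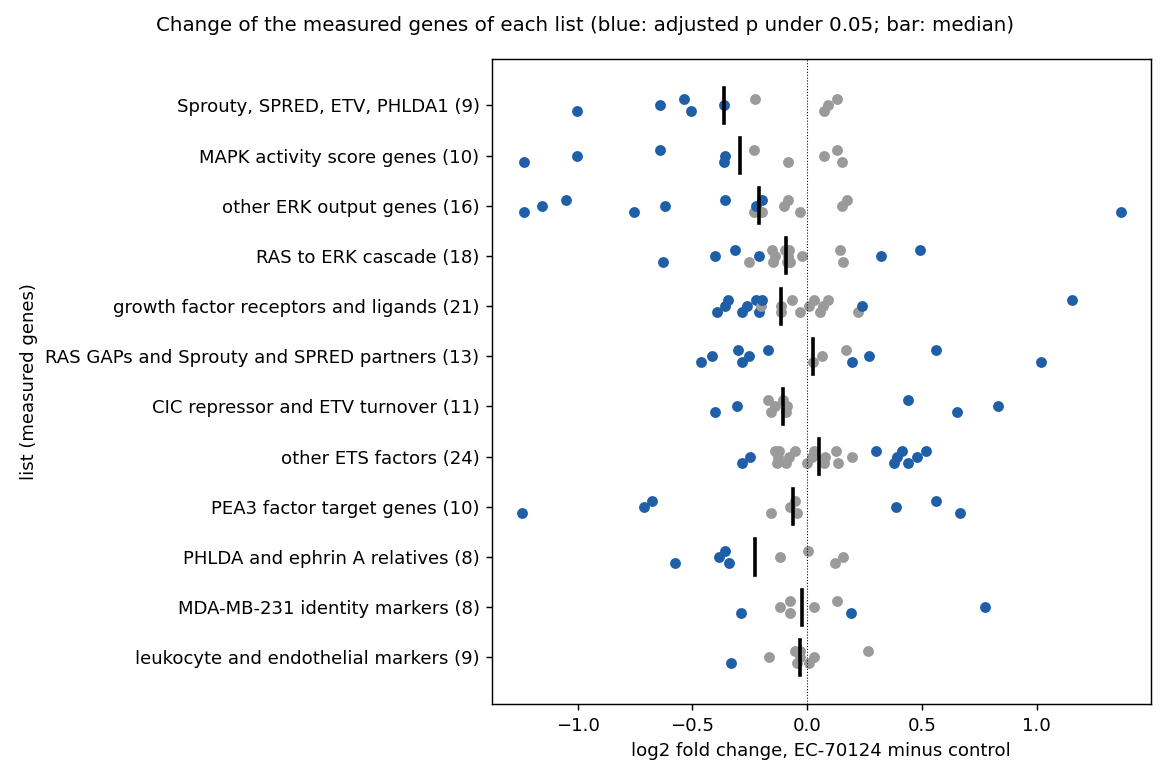
Log2 fold change (EC-70124 minus control, x axis) of the measured genes of each list (y axis, with the number measured). Points stand for genes, in blue where limma called them, and bars for the medians. The medians are -0.36 for the Sprouty, SPRED, ETV and PHLDA1 genes, -0.29 for the MAPK activity score and 0.05 for the other ETS factors.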

How the data were processed

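Total RNA of 3 control and 3 EC-70124 samples was hybridized to 1 array each. The authors normalized the arrays in dChip with a rank invariant method and deposited 1 intensity (model-based expression index) per probe set on a linear scale. Neither the version of dChip nor its background correction is given, and without a background measure dim probe sets could not be set apart. Array medians were 437 to 460.1.

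A floor of 1 was applied to the intensities before log2. Of 33252 probe sets, 19460 carry 1 symbol, 1754 several and 12038 none, and the probe set with the highest mean represented each of 18417 genes. Each of the 9 measured genes has 1 probe set. Groups were compared in limma 3.58.1 (lmFit, eBayes; R 4.3.3) with Benjamini-Hochberg adjustment over all genes, two-sided, at 0.05. The scripts were tested on simulated data. The number of arrays limits precision, and the median standard error was 0.07.

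The genes and lists were chosen with earlier results of these data known, so no list received a test of its own. Named from each list were up to 5 genes with the largest change past the threshold, and EPHA2, CIC, SPRY3, SPRED3 and MAPK3 in any case. Some genes of the lists are not reported here. Other genes of the 10-gene score, PHLDA2, PHLDA3, EFNA1, EFNA2, ICAM1, VIM, ESR1 and PGR were named after their values were seen. Alternatives covered other normalizations, a filter on dim genes, an offset of 50, the median over probe sets, other variance models, an unequal-variance t statistic (the methods name a t-test for ranking, without its form), a replicate block, a fold of at least 1.5 and leaving out each array.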

Additional observations from a re-analysis of the deposited data

How the results depend on the processing

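Of 15 alternative settings, none turned the direction of any of the 9 genes. SPRED2 passed after quantile normalization (-0.28), cyclic loess (-0.27), without the 30% dimmest genes (-0.23, unchanged in size) and with trend and robust settings (-0.23). With the unequal-variance statistic SPRY1 (-0.51) and ETV1 (-0.53) did not pass, and 3 of the 9 genes did. A fold of at least 1.5 was reached by 2 genes, and not by SPRY1 (-0.51), SPRY2 (-0.36) and ETV1 (-0.53). With single arrays left out, log2 fold changes ran from -1.05 to -0.91 for SPRY4, -0.38 to -0.35 for SPRY2, -0.61 to -0.35 for SPRY1, -0.71 to -0.56 for ETV4, -0.67 to -0.31 for ETV1, -0.32 to -0.18 for SPRED2, 0.07 to 0.12 for SPRED1, 0.067 to 0.21 for ETV5 and 0.03 to 0.15 for PHLDA1. The count of called genes ran from 4 to 7. It was 7 without EC-70124 replicate 3, where 37.1% of all genes were called. It was 4 without control replicate 1, 2 or 3. Over all 18417 genes 2991, 3228 and 3098 then rose, and 2181, 2133 and 2309 fell.

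Counts of called genes in the 11 lists stayed within 1.5 times in 146 of 165 recomputations. At a fold of at least 1.5 they were 3 for the MAPK activity score, 1 each for the RAS to ERK cascade, the receptors and ligands, the GTPase activators and partners and the identity markers, 2 for CIC and ETV turnover, and 0 for the other ETS factors, the PHLDA and ephrin A relatives and the leukocyte and endothelial markers. With the unequal-variance statistic they were 3 for receptors and ligands, 4 for activators and partners, 2 for CIC and ETV turnover, 4 for other ETS factors, 1 for identity markers and 0 for leukocyte and endothelial markers, of which 2 passed with the median over probe sets. With single arrays left out, the activators and partners had 4 to 10 called genes (4 without control replicate 1 and 6 without control replicate 2, against 10) and the leukocyte and endothelial markers 0 to 1. Over all genes, 1962 rose and 1280 fell with the unequal-variance statistic, and 1184 and 596 at a fold of at least 1.5.

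Replicate numbers are shared between the groups, but deviations of same-numbered arrays from their group means correlated at 0.13, -0.02 and 0.14 for numbers 1, 2 and 3, so the arrays were not taken as pairs. Control replicate 2 correlated best with EC-70124 replicate 1. With the replicate block, 5 of the 9 genes were again called, SPRY4 at -1.004 and ETV1 at -0.53, and over all genes 3521 rose and 2662 fell, against 3631 and 2722. No other probe set carries the symbol of any of the 9 genes, so the median over probe sets left their log2 fold changes as they were and changed the adjusted p through the other genes only.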
